A study of Drosophila melanogaster with 12 samples.

Results

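The Methuselah receptors are a family of insect G protein-coupled receptors related to the class B, or secretin-like, receptors. They are named after *methuselah* (*mth*), whose mutants live long and resist stress. Peptides made from *stunted* (*sun*) bind Mth, the growth-blocking peptides bind Mthl10, and Folded gastrulation (*fog*) acts on cells through Mthl1 and a second receptor, Smog. *mthl5* is known from studies of the heart. No ligand or role is stated here for *mthl2*, *mthl3*, *mthl4*, *mthl8*, *mthl9* or *mthl14*.

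For this family, 10 genes were read from the count table by their FlyBase symbols, *mth*, *mthl1*, *mthl2*, *mthl3*, *mthl4*, *mthl5*, *mthl8*, *mthl9*, *mthl10* and *mthl14*, and all 10 were found among its 17737 genes. The family has 16 genes in the table, so that 6 were left aside as the rest of the family. *mthl8* was chosen by its counts, which were 0 in every knockdown library, and its knockdown values are therefore a description with no test. The other 9 were chosen as its paralogs, and all 10 passed the filter on low counts in each comparison, *mthl8* through its control libraries.

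Whole-head RNA was sequenced in 12 libraries, 3 in each of 4 groups. *PIG-A*, which encodes a subunit of the enzyme that starts the synthesis of glycosylphosphatidylinositol anchors, was knocked down in neurons (ELAV-GAL4 crossed to the RNAi stock BDSC 62696, "neuron KD") and compared with ELAV-GAL4 crossed to the AttP stock BDSC 36304 ("elav control"). It was knocked down in glia with REPO-GAL4 and the same RNAi stock ("glia KD"), and compared with REPO-GAL4 crossed to the same AttP stock ("repo control"). The labels give pools of 5 to 10 flies aged 3 to 5 days, kept at 25°C and away from CO2 for 48 hours, and the methods describe male flies. The drivers express GAL4 in neurons or in glia, but RNA came from the whole head, in which fewer cells of a type and less RNA per cell cannot be told apart. Both crosses of a driver shared the driver line and differed in the other parent, so the knockdown and the rest of the RNAi stock's genome cannot be told apart.

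The libraries held 20694850 to 31893782 counts, and levels are given in CPM (a gene's counts per 1000000 counts of its library, after TMM scaling over the 12 libraries). *PIG-A* had 79, 75 and 81 counts in neuron KD libraries, against 113, 153 and 76 in elav controls, and 110, 124 and 118 in glia KD libraries, against 175, 124 and 131 in repo controls. In CPM it stood at 3.00, 2.55 and 3.04 in neuron KD, against 3.73, 5.18 and 3.61 in elav controls. Each neuron KD library was thus below each elav control, as for 10.2% of all genes tested. Glia KD libraries, at 3.98, 4.85 and 5.22 CPM, overlapped repo controls, at 4.93, 4.85 and 4.86 CPM. The log2 fold change of *PIG-A* was −0.55 in the neuron comparison (SE 0.20, edgeR adjusted p = 0.284) and −0.04 in the glia comparison (SE 0.16, edgeR adjusted p = 0.906), so it did not pass the test with either driver. Its unadjusted p was under 0.05 in the neuron comparison, as for 14.4% of all genes tested. Neuronal, glial and photoreceptor markers were present in every library. The yolk protein genes *Yp1* to *Yp3*, transcribed in female fat body, were abundant in every library, though the methods describe male flies. *Yp1* alone stood at 17347 to 83232 CPM. These genes made up most of a fat body list that summed to 46342 to 203005 CPM. Of 4 genes of the accessory gland and testis *SP* and *Mst84Da* were at 0 throughout, while *Acp36DE* and *bam* had at most 5 and at most 2 counts in a library. Those organs lie outside the head, so such counts cannot tell the sex of the flies, which was not tested. Neuron KD replicate 3 and repo control replicate 3 stood apart, with summed muscle markers of 8336 and 8971 CPM, against 1750 to 2872 in the other 10 libraries.

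*mthl8* (FBgn0052475) spans positions 22428 to 26308 of chromosome 3L on the plus strand, in the coordinates of BDGP Release 6 (dm6). Its annotated exons cover 3413 bases in 7 blocks and overlap no other annotated gene. It had 0, 0 and 0 counts in neuron KD libraries, against 181, 231 and 131 in elav controls. It had 0, 0 and 0 counts in glia KD libraries as well, against 192, 169 and 120 in repo controls. All 1024 reads assigned to *mthl8* thus fell in control libraries, and not 1 in the knockdown libraries of either driver.

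In CPM, *mthl8* stood at 5.97, 7.82 and 6.22 in elav controls and at 5.41, 6.61 and 4.45 in repo controls. The means were 6.67 ± 1.002 CPM in elav controls and 5.49 ± 1.08 CPM in repo controls (SD, n = 3 each), and the ranges overlapped. This difference between the controls was not used to choose the gene. The log2 fold change of elav control over repo control was 0.30 (SE 0.21, edgeR adjusted p = 0.436), and it did not pass the test.

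The depth bounds how much *mthl8* RNA the knockdown heads could hold, as far as its reads were aligned and assigned to the gene. The neuron KD libraries held 86736067 counts together and the glia KD libraries 77709909. Allowing 3 counts over each group, the limit of a count of 0, gives levels of up to 0.0364 CPM in neuron KD libraries and up to 0.0396 CPM in glia KD libraries. *mthl8* was therefore at least 183-fold lower in neuron KD than in elav control heads and at least 139-fold lower in glia KD than in repo control heads. These limits cover counting error only. They take reads of *mthl8* to be assigned alike in knockdown and control crosses, which was not tested. With each library left out in turn they were 118- to 193-fold in neuron KD and 88.1- to 152-fold in glia KD, lowest without neuron KD replicate 2 (118-fold), without glia KD replicate 1 (88.1-fold) and without glia KD replicate 2 (91.9-fold), since fewer counts allow a higher level.

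**Figure D1:**
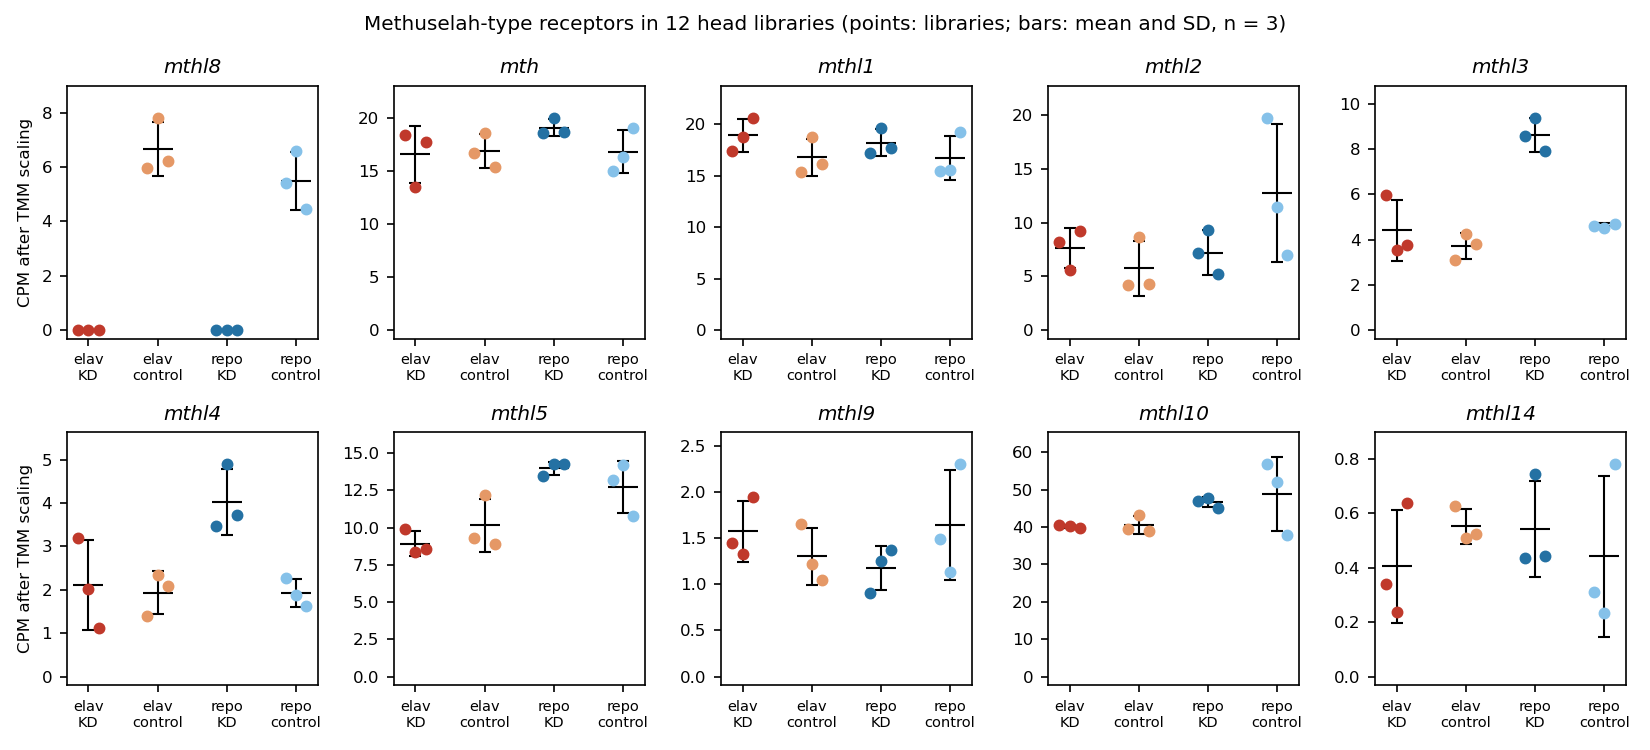
CPM after TMM scaling of the 10 receptors, a panel each, in neuron KD (elav KD), elav control, glia KD (repo KD) and repo control libraries; points are libraries and bars the mean and SD of 3. *mthl8* lies at 0 in all 6 knockdown libraries and between 4.45 and 7.82 CPM in all 6 controls, and *mthl3* and *mthl4* are higher in each glia KD library than in each repo control.

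Counts of 0 in the knockdown libraries were common among genes that are hardly expressed in heads, and rare among those expressed as *mthl8* was in controls. In all, 3608 genes had 0 counts in all 6 knockdown libraries, and 2960 of the genes in the table had none in any of the 12. Of the 7847 genes with at least 100 counts in each control library, *mthl8* was the 1 gene with 0 counts in all 6 knockdown libraries. Among the others of those 7847, the lowest count in any knockdown library was 19 and the lowest sum over the 6 was 450.

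The pattern of 0 counts in all 6 knockdown libraries and at least 1 count in all 6 controls was found in 3 genes, *mthl8*, *CG10943* (FBgn0036320) and the odorant receptor gene *Or69a* (FBgn0041622). *CG10943* had 18, 18 and 15 counts in elav controls and 6, 25 and 1 in repo controls. *Or69a* had 5, 15 and 2 counts in elav controls and 2, 6 and 4 in repo controls. Their sums over the 6 controls, 83 and 34 counts, are far under the 1024 counts of *mthl8*. All 3 genes lie on chromosome arm 3L. The share of all genes on that arm was not counted, and *CG10943* and *Or69a* had as few as 1 and 2 counts in a control library. Nothing about the arm can be read from these 3. With the same allowance of 3 counts, *CG10943* was at least 17.5-fold lower in neuron KD heads and at least 9.97-fold lower in glia KD heads. For *Or69a* the limits were 7.03-fold and 3.70-fold. Both genes were picked for their counts of 0, so these limits are a description with no test. The limit of *CG10943* in glia KD rests on repo control replicate 2, with 25 of the 32 counts. It was 2.60-fold without that library, 6.33-fold without glia KD replicate 1 and 6.61-fold without glia KD replicate 2. In neuron KD it was 11.3- to 18.1-fold with a library left out, lowest without neuron KD replicate 2. For *Or69a* these ranges were 3.57- to 9.23-fold in neuron KD and 2.35- to 4.84-fold in glia KD.

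The opposite pattern, counts in all 6 knockdown libraries and 0 in all 6 controls, was found in 3 genes too. *Sfp77F*, on 3L, had 6 to 28 counts a library in the knockdowns and 109 in all. *CR31292*, on 3R, had 21 counts in all, and *CG31775*, on 2L, had 9. Of these 6 genes *mthl8* had by far the most counts.

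*mthl8* is the first gene of the table on chromosome arm 3L, with 0 of the table's genes between it and the tip. Its 5 nearest neighbours, all towards the centromere, were hardly counted. *CG43149*, which starts 27.6 kb beyond the end of *mthl8*, had 16 counts in the 6 knockdown libraries and 12 in the 6 controls and was under the filter. *Lsp1gamma*, which encodes a subunit of a larval serum storage protein and starts 40.1 kb beyond it, had 101 counts in knockdowns and 56 in controls. Its log2 fold changes of 0.76 in the neuron comparison (edgeR adjusted p = 0.507) and 1.10 in the glia comparison (edgeR adjusted p = 0.422) did not pass the test. The next 3 genes, the non-coding *lncRNA:CR44510*, *lncRNA:CR44511* and *lncRNA:CR43150*, had 0 counts in the knockdowns and 0, 1 and 0 counts in the controls. *CG43149* and *Lsp1gamma* were thus counted in both knockdowns and controls. *CG43149* was counted almost only with elav-GAL4, with 15 counts in neuron KD and 11 in elav controls, against 1 each in glia KD and repo controls.

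Over the first 400 kb beyond *mthl8* the table has 71 genes, of which 46 were tested with each driver. A call needed both an adjusted p no higher than 0.05 and a fold change of 1.5 or more. With elav-GAL4 0.16% of all genes tested met it, 0.0801% higher and 0.0801% lower, and with repo-GAL4 3.6%, 2.67% higher and 0.925% lower. In the neuron comparison 0 of the 46 were called, with log2 fold changes between −0.65 and 1.08 and a median of −0.03. Of these, 7 had an unadjusted p under 0.05, beside 14.4% of all genes tested, and DESeq2 called 0 of the 63 genes of the window that it tested, beside 1.98% of all. In the glia comparison 3 were called higher and 0 lower, with a median of −0.01 and a range of −1.18 to 1.20. An unadjusted p under 0.05 was found for 8 of the 46, beside 22.3% of all genes tested, and DESeq2 called 5 of 62, beside 4.95% of all. The 3 genes that edgeR called were *Gk1*, a glycerol kinase gene (log2 fold change 1.02, edgeR adjusted p = 0.0269), *Tudor-SN*, which encodes a Tudor-domain nuclease (0.88, edgeR adjusted p = 0.0103), and *CG32344* (0.76, edgeR adjusted p = 0.0476).

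**Figure D2:**
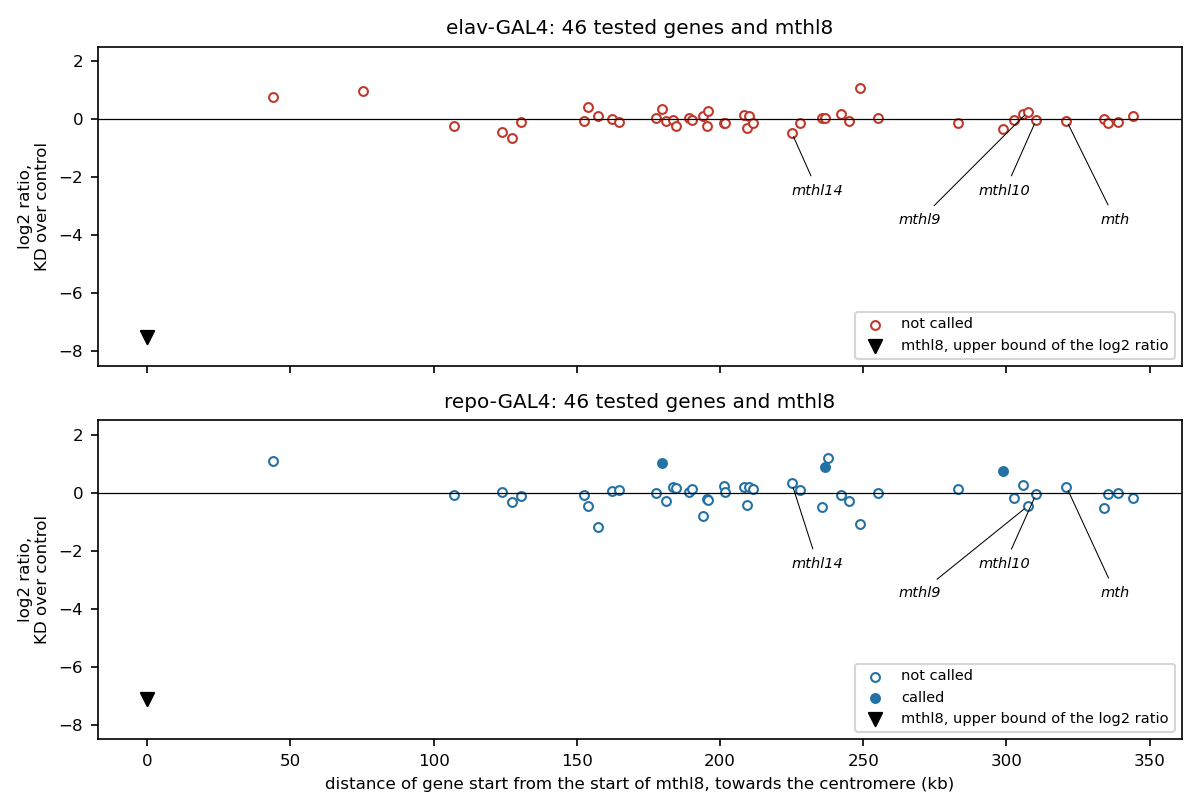
Log2 ratio of knockdown over control for the 46 genes tested with each driver in the 400 kb beyond *mthl8*, against the distance of each gene's start from that of *mthl8* in kb; the triangle is the upper bound for *mthl8*, from 3 counts over the knockdown group, and filled points are called. Apart from *mthl8* the points lie between −0.65 and 1.08 with elav-GAL4 and between −1.18 and 1.20 with repo-GAL4, and *mthl14*, *mthl9*, *mthl10* and *mth* are not called.

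The window holds 4 more receptors of the family. *mthl14* lies on 3L at 247491 to 250305 on the plus strand, 221182 bases beyond *mthl8*, and overlaps *DIP2* on the opposite strand. *mthl9* (329822 to 332309), *mthl10* (332801 to 342915) and *mth* (343378 to 346957) stand in a row on the minus strand, with gaps of 491 and 462 bases. None of the 4 lost its counts with *mthl8*. *mth* kept 398 to 486 counts in neuron KD libraries, against 324 to 550 in elav controls, and 422 to 514 in glia KD libraries, against 418 to 535 in repo controls.

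The 5 other members lie further away or on other arms. *mthl2* is at 5604790 to 5607190 of 3L on the plus strand and overlaps *Eaf6* on the opposite strand. *mthl4* (17445185 to 17447483) and *mthl3* (17448533 to 17452598) are neighbours on the minus strand of 2R, 1049 bases apart. *mthl5* is on the minus strand of 3R at 11883938 to 11887168, and *mthl1* on the plus strand of X at 16640968 to 16650309. How the counting treated strand is not given in the sources used here, so reads of *mthl2* and *Eaf6*, or of *mthl14* and *DIP2*, may not be separated.

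By level per length of annotated exon, *mthl10* was the most abundant receptor of the family in control heads, at 10.7 ± 1.89 CPM per kb (SD, n = 6 control libraries). It was followed by *mth* (6.96 ± 0.680), *mthl5* (5.86 ± 1.09), *mthl2* (4.54 ± 2.87) and *mthl1* (3.30 ± 0.347). *mthl8* came next with 1.78 ± 0.332 CPM per kb, beside *mthl3* (1.66 ± 0.246) and above *mthl4* (1.002 ± 0.194), *mthl9* (0.691 ± 0.218) and *mthl14* (0.238 ± 0.0959). *mthl8* was thus a middle-ranked receptor of these heads. The ranges of neighbours in this order were apart between *mthl10* and *mth*, *mthl1* and *mthl8*, *mthl3* and *mthl4*, and *mthl9* and *mthl14*, and overlapped in every other pair, *mthl8* and *mthl3* included.

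**Figure D3:**
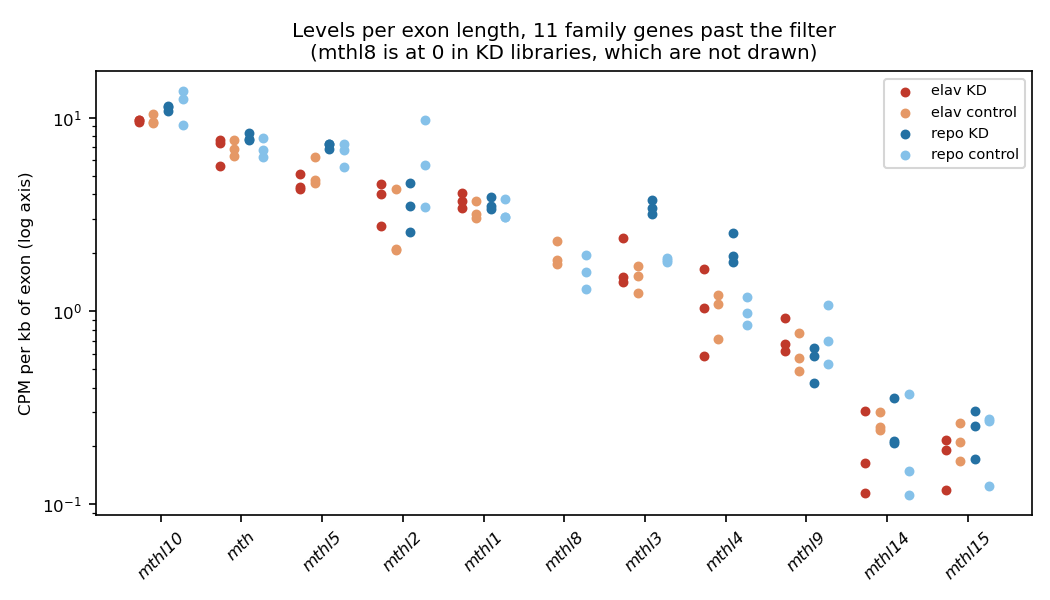
Level per kb of exon on a log axis (CPM per kb, each point a library) of the 11 family genes past the filter, ordered by their mean in controls, in neuron KD, elav control, glia KD and repo control libraries. *mthl8* sits sixth and has points only in the control libraries, since its knockdown libraries are at 0.

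Of the rest of the family, *mthl15* alone was tested. Its control level was 0.218 ± 0.0619 CPM per kb, and its log2 fold changes of −0.30 in the neuron comparison (edgeR adjusted p = 0.744) and 0.14 in the glia comparison (edgeR adjusted p = 0.869) did not pass. *mthl6*, *mthl7*, *mthl12* and *mthl13* had at most 4 counts in any library. *mthl11* (FBgn0045443) had 4, 2 and 1 counts in neuron KD libraries, against 0, 0 and 0 in elav controls, and 15, 24 and 5 counts in glia KD libraries, against 0, 0 and 1 in repo controls. *mthl11* was thus counted in the 6 knockdown libraries and in 1 control, the reverse of *mthl8*, but it was under the filter. Without that filter its glia comparison was called (edgeR adjusted p = 0.0317), as it was by DESeq2 (adjusted p = 0.00327).

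In the glia comparison, *mthl3* and *mthl4* were higher in knockdown heads. *mthl3* (FBgn0028956) stood at 8.57, 9.39 and 7.92 CPM in glia KD libraries, against 4.62, 4.50 and 4.71 CPM in repo controls. The groups were clearly apart, and *mthl3* averaged 8.63 ± 0.736 CPM in glia KD and 4.61 ± 0.109 CPM in repo control (SD, n = 3 each). The log2 fold change was 0.92 (SE 0.13, edgeR adjusted p = 0.0169).

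*mthl4* (FBgn0034219), its neighbour on 2R, stood at 3.47, 4.89 and 3.72 CPM in glia KD libraries, against 2.28, 1.88 and 1.63 CPM in repo controls. Each glia KD library was above each repo control here too, with means of 4.03 ± 0.758 CPM in glia KD and 1.93 ± 0.327 CPM in repo control (SD, n = 3 each). The log2 fold change was 1.07 (SE 0.22, edgeR adjusted p = 0.0445). Of all genes tested with repo-GAL4, 2.67% were called higher and 14.6% had every knockdown library above every control, beside 2 of these 9 receptors on both counts. The groups did not overlap, in either direction, for 29.9% of all genes tested (15.4% with every knockdown library below every control), and for 2 of the 9.

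Both calls lay near the threshold. With each library left out in turn, *mthl3* kept log2 fold changes of 0.86 to 0.98 but missed the threshold without repo control replicate 1 (edgeR adjusted p = 0.0809) and without glia KD replicate 1, 2 or 3 (0.0797, 0.0862 and 0.0718). *mthl4* kept 0.92 to 1.20 and was called in 1 of the 6 fits, that without repo control replicate 3 (edgeR adjusted p = 0.0390). In 1 fit of all 12 libraries *mthl4* missed the threshold (log2 fold change 1.08, edgeR adjusted p = 0.0678), while *mthl3* passed (0.93, edgeR adjusted p = 0.0164).

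Cell type markers moved in both directions beside these changes. In the glia list, *alrm* was called higher in glia KD (log2 fold change 0.64, edgeR adjusted p = 0.0444) as 1 of 6 markers, and the summed list was 2473 to 2705 CPM in glia KD and 1989 to 2712 CPM in repo control. Of the 6, 5 had fold changes above 0, and the lowest edgeR adjusted p, 0.0217, came with a change under 1.5-fold. *moody* stood at 110, 116 and 100 CPM in glia KD, against 77.0, 73.3 and 72.5 CPM in repo control. In the hemocyte list, *srp* was called higher (0.73, edgeR adjusted p = 0.0147) as 1 of 5. *Hml* (0.75, edgeR adjusted p = 0.128), which averaged 394 CPM in glia KD and 238 CPM in repo control, and *Pxn* (0.09, 0.673) had values above 0, and *eater* (−0.49, 0.351) and *NimC1* (−0.17, 0.632) below it. The sum was 664 to 809 CPM in glia KD and 484 to 606 CPM in repo control. In the fat body list 0 of 6 were called and 2 had an unadjusted p under 0.05, beside 22.3% of all genes tested. Log2 fold changes were above 0 for 6 of 6, with a median of 0.75, but ranged from 0.02 to 1.40, with edgeR adjusted p up to 0.994. The list, mostly RNA of *Yp1* to *Yp3*, summed to 115180 to 189672 CPM in glia KD and 46342 to 128071 CPM in repo control. In the neuron comparison 0 of 6 of this list were called as well, and 6 of 6 were above 0, with a median of 0.68. There 3 had an unadjusted p under 0.05, beside 14.4% of all genes tested. The sum was 96485 to 203005 CPM in neuron KD and 74104 to 102736 CPM in elav control, while *mthl3* and *mthl4* were not called. *apolpp*, which encodes the main lipoprotein of the hemolymph, stood at 8158, 11563 and 6288 CPM in glia KD, against 2129, 4230 and 3597 CPM in repo control (1.40, edgeR adjusted p = 0.0697). Each glia KD library was above each repo control for *apolpp*, as for *mthl3* and *mthl4* and for 14.6% of all genes tested. In these lists it was also so for *repo*, *alrm*, *moody*, *Hml*, *srp*, *FASN1* and *Yp1*, and not for the other markers. Other lists were lower in the glia comparison, with 0 called, beside 3.6% of all genes tested. Fold changes above 0 were found for 0 of 4 muscle, 0 of 4 tracheal and 0 of 5 photoreceptor markers tested. Their medians were −1.22, −1.46 and −0.17. Repo control replicate 3 had the highest muscle and tracheal sums of its group, 8971 and 307 CPM. Of 5 neuronal markers 2 were above 0, with a median of −0.06. The part of these cell types in the values of *mthl3* and *mthl4* was not tested.

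The other 7 receptors were not called in the glia comparison. *mth* had a log2 fold change of 0.20 (edgeR adjusted p = 0.350), *mthl1* of 0.14 (0.552), *mthl5* of 0.16 (0.508) and *mthl10* of −0.05 (0.878). *mthl9* (−0.47, edgeR adjusted p = 0.454) and *mthl14* (0.32, edgeR adjusted p = 0.765) were the least counted of them, with 0.905, 1.25 and 1.37 CPM of *mthl9* in glia KD, against 1.49, 1.13 and 2.30 CPM in repo control. *mthl14* had 12, 19 and 10 counts in glia KD and 11, 6 and 21 counts in repo control. *mthl10*, the most abundant, stood at 47.1, 47.7 and 45.2 CPM in glia KD libraries, against 56.8, 52.0 and 37.9 CPM in repo controls. Its groups overlapped, with the wider spread in the controls. *mthl5* stood at 13.5, 14.2 and 14.3 CPM in glia KD libraries, against 13.2, 14.2 and 10.8 CPM in repo controls. *mth* stood at 18.6, 20.04 and 18.7 CPM in glia KD, against 15.1, 16.3 and 19.0 CPM in repo control, and *mthl1* at 17.2, 19.7 and 17.7 CPM in glia KD, against 15.5, 15.6 and 19.2 CPM in repo control. In these 3 genes repo control replicate 3 was set off from the other controls, lower in *mthl5* and higher in *mth* and *mthl1*. The median log2 fold change of the 9 receptors was 0.16, beside −0.02 over all genes tested.

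In the neuron comparison none of the 9 receptors was called. By edgeR's quasi-likelihood test 0 of 9 passed, 0 had an unadjusted p under 0.05 (14.4% of all genes tested), DESeq2 called 0, and 0.16% of all genes tested were called by edgeR. *mthl3* stood at 5.96, 3.54 and 3.75 CPM in neuron KD libraries, against 3.10, 4.26 and 3.80 CPM in elav controls. *mthl4* stood at 3.19, 2.01 and 1.13 CPM in neuron KD, against 1.39, 2.33 and 2.09 CPM in elav controls. For both genes neuron KD replicate 1 was the highest of the 6 libraries and the groups overlapped. For all 9 receptors the groups overlapped, where 21.4% of all genes tested had groups that did not (11.2% with the knockdowns above, 10.2% with them below). The log2 fold changes were 0.24 for *mthl3* (SE 0.25, edgeR adjusted p = 0.701) and 0.12 for *mthl4* (SE 0.39, edgeR adjusted p = 0.923).

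The abundant receptors had small fold changes under elav-GAL4. *mthl10* stood at 40.5, 40.3 and 39.7 CPM in neuron KD libraries, against 39.6, 43.3 and 38.8 CPM in elav controls, and its log2 fold change was −0.02 (SE 0.07, edgeR adjusted p = 0.917). *mth*, at 18.4, 13.5 and 17.8 CPM in neuron KD and 16.7, 18.6 and 15.4 CPM in elav control, had one of −0.04 (SE 0.14, edgeR adjusted p = 0.934). *mthl1*, at 17.4, 18.8 and 20.6 CPM in neuron KD and 15.4, 18.8 and 16.2 CPM in elav control, had one of 0.17 (SE 0.11, edgeR adjusted p = 0.542), the lowest adjusted p of the 9. In all 3 genes the groups overlapped. *mthl5* stood at 9.91, 8.33 and 8.55 CPM in neuron KD libraries, against 9.30, 12.2 and 8.93 CPM in elav controls, and *mthl9* at 1.44, 1.33 and 1.95 CPM in neuron KD, against 1.65, 1.22 and 1.04 CPM in elav control. *mthl14* had 9, 7 and 17 counts in neuron KD and 19, 15 and 11 counts in elav control, too few to show a small change. *mthl5* (−0.19, edgeR adjusted p = 0.618), *mthl9* (0.25, 0.720) and *mthl14* (−0.46, 0.667) did not pass the test, and the median of the 9 was 0.12, beside 0.0025 over all genes tested.

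**Figure D4:**
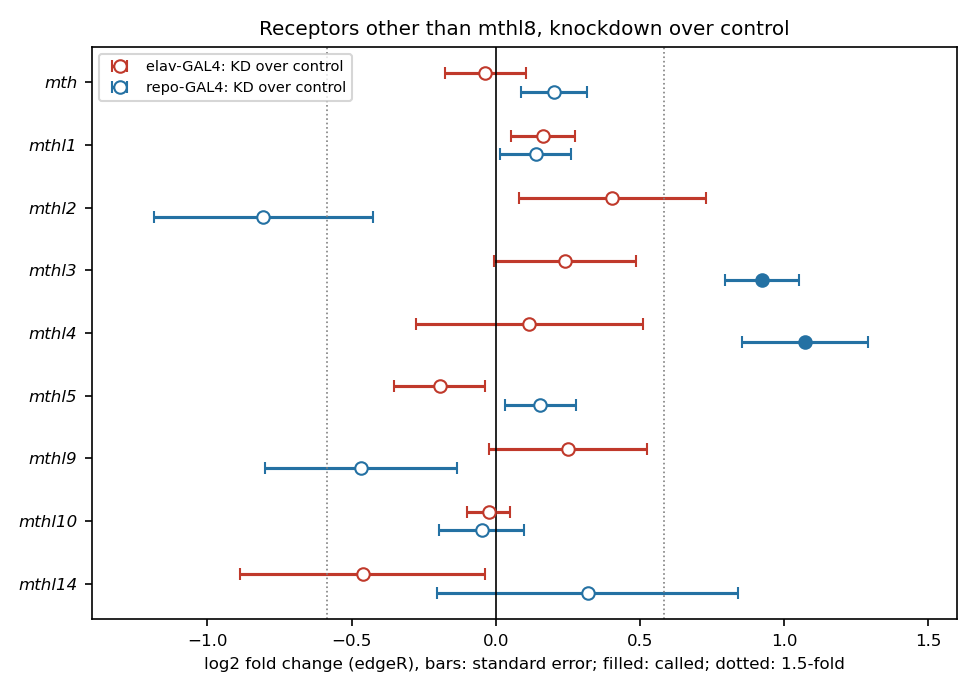
Log2 fold change of knockdown over control for the 9 receptors other than *mthl8*, with elav-GAL4 (red) and repo-GAL4 (blue); bars are standard errors, filled points are called and dotted lines mark a 1.5-fold change. Only *mthl3* (0.92) and *mthl4* (1.07) with repo-GAL4 are called, and *mthl2* lies at 0.40 with elav-GAL4 and at −0.81 with repo-GAL4.

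An interaction term in a fit of all 12 libraries tested whether the knockdown acted differently under elav-GAL4 and repo-GAL4. It called 3.01% of all genes tested, 0.624% higher and 2.39% lower, and 0 of the 9 receptors. DESeq2 called 0 of the 9 as well, and 4.66% of all genes. At an unadjusted p under 0.05, as 21.1% of all genes were, there was 1, *mthl3*, whose log2 difference of the fold changes, elav-GAL4 minus repo-GAL4, was −0.69 (SE 0.28, edgeR adjusted p = 0.190). That of *mthl4* was −0.96 (SE 0.47, edgeR adjusted p = 0.266) and that of *mthl2* 1.21 (SE 0.55, edgeR adjusted p = 0.236). The rise of *mthl3* and *mthl4* in glia KD was thus not shown to differ from their change in neuron KD.

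*mthl2* (FBgn0035623) varied most among the receptors with at least 90 counts in every library. It stood at 8.20, 5.61 and 9.19 CPM in neuron KD libraries, against 4.22, 8.70 and 4.27 CPM in elav controls, and at 7.13, 9.31 and 5.18 CPM in glia KD libraries, against 19.8, 11.5 and 7.01 CPM in repo controls. The groups overlapped with both drivers, and repo control replicate 1 was the highest library of all. Its log2 fold change was 0.40 in the neuron comparison (SE 0.33, edgeR adjusted p = 0.615) and −0.81 in the glia comparison (SE 0.38, edgeR adjusted p = 0.264). Without repo control replicate 3 the glia change was called (−1.09, edgeR adjusted p = 0.0492), and over the 6 fits that leave out a library it ranged from −1.09 to −0.36.

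Among hemocyte markers, *eater*, a phagocytic receptor gene of plasmatocytes, had a pattern close to that of *mthl2*. *eater* stood at 11.6, 8.27 and 10.2 CPM in neuron KD libraries, against 8.74, 12.7 and 9.07 CPM in elav controls, and at 10.3, 13.3 and 9.91 CPM in glia KD libraries, against 22.4, 14.9 and 10.2 CPM in repo controls. The count of *mthl2* was 0.471 to 0.904 of that of *eater* in the 12 libraries, while *mthl2* itself spanned 4.68-fold and *eater* 2.71-fold. *Hml*, another hemocyte marker, did not share this order, at 247, 161 and 304 CPM in repo controls, against 335 to 440 CPM in glia KD. *NimC1*, a further phagocytosis receptor gene, had its highest level, 77.3 CPM, in repo control replicate 1 as well. *srp*, like *Hml*, was lower in repo controls, at 63.8, 69.2 and 57.9 CPM, against 103 to 107 CPM in glia KD. *Pxn* spanned only 1.36-fold over the 12 libraries. *mthl2* and *eater* were set side by side after their values were seen, and the part of hemocyte number in the level of *mthl2* was not tested.

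**Figure D5:**
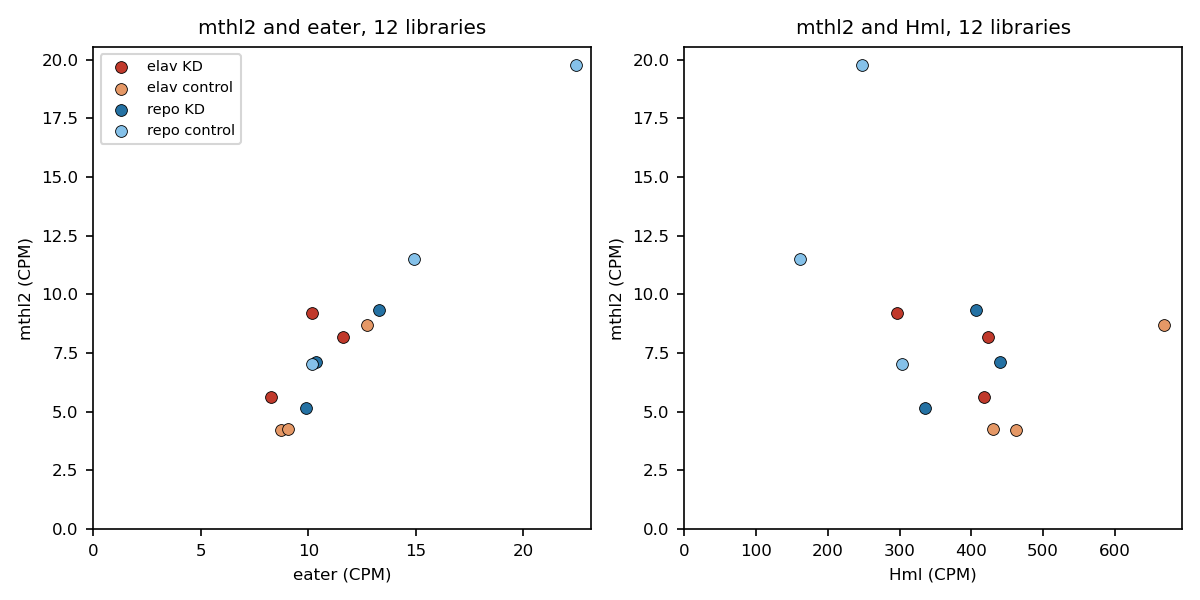
CPM of *mthl2* against CPM of *eater* (left) and of *Hml* (right) in the 12 libraries, coloured by group. *mthl2* and *eater* are both highest in repo control replicate 1 (19.8 and 22.4 CPM), whereas *Hml* is highest, at 668 CPM, in elav control replicate 2, where *mthl2* is at 8.70 CPM.

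Between the controls of the drivers, 4.78% of all genes tested were called, 2.49% higher and 2.29% lower in elav controls, and 0 of the 10 receptors by edgeR. *mthl2* came nearest, with a log2 fold change of elav control over repo control of −1.13 (SE 0.39, unadjusted p = 0.0143, edgeR adjusted p = 0.107), and it was the 1 receptor with an unadjusted p under 0.05, as were 23.8% of all genes tested. It was called by DESeq2 (adjusted p = 0.0348, among 4.72% of all genes) and when repo control replicate 3 was left out (−1.42, edgeR adjusted p = 0.0320). *mthl5* (−0.31, edgeR adjusted p = 0.211) and *mthl10* (−0.25, edgeR adjusted p = 0.232) did not pass. *Hml*, by contrast, was called higher in elav controls (1.15, edgeR adjusted p = 0.0173).

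The genes whose log2 CPM over the 12 libraries was most like that of *mthl8*, of 10256 compared, were *CG3434* (Pearson's r 0.965), *l(2)k05911* (0.957), *Vps13B* (0.956), *CG3552* (0.948) and *sing* (0.945). These coefficients are a description, since *mthl8* itself separates knockdown from control libraries in full. None of the 5 was lost as *mthl8* was. *CG3434* averaged 9.78 CPM in knockdowns and 17.1 CPM in controls, *CG3552* averaged 12.1 CPM in knockdowns and 28.4 CPM in controls, and *Vps13B*, which encodes a protein of a lipid transfer family, averaged 32.1 CPM in knockdowns and 71.8 CPM in controls. *sing*, which encodes a membrane protein of myoblast fusion, averaged 0.138 CPM in knockdowns and 0.597 CPM in controls. *CG3552* (3L, 9456318 to 9459370) and *CG3434* (3L, 9459369 to 9460799) are neighbours that share only positions 9459369 and 9459370, where reads may not be separated. By Spearman's rank correlation only *CG3552* and *sing* were again among the 5 most alike.

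No receptor of the family was among them. The r of the other members with *mthl8* lay between −0.56 for *mthl3* and 0.11 for *mthl2*, over the same 12 libraries.

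The known ligands of these receptors and the second Fog receptor were measured too. Of *sun*, *Gbp1*, *Gbp2*, *Gbp3*, *fog* and *smog*, 0 of 6 were called in the neuron or the glia comparison, in the interaction or between the controls. Their median log2 fold changes were 0.15 in the neuron comparison and 0.06 in the glia comparison. In these 4 comparisons edgeR called 0.16%, 3.6%, 3.01% and 4.78% of all genes tested. At an unadjusted p under 0.05 there were 0 of the 6 in the neuron comparison, beside 14.4% of all genes, 1 in the glia comparison, beside 22.3%, 2 in the interaction, beside 21.1%, and 0 between the controls, beside 23.8%. *sun*, the ligand gene of Mth, had log2 fold changes of 0.41 (edgeR adjusted p = 0.416) and −0.47 (edgeR adjusted p = 0.380) in the neuron and the glia comparison. *Gbp3*, a growth-blocking peptide gene, had one of 0.70 in the glia comparison (SE 0.22, edgeR adjusted p = 0.125) and was the 1 gene of the 6 that DESeq2 called, in that comparison (adjusted p = 0.0321).

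Of 11 genes of G protein signalling, 0 were called by edgeR with either driver, 1 in the interaction and 0 between the controls, and 1, 2, 2 and 3 had an unadjusted p under 0.05 with elav-GAL4, with repo-GAL4, in the interaction and between the controls, where 14.4%, 22.3%, 21.1% and 23.8% of all genes did. The called gene was *cta*, the G protein alpha subunit that acts downstream of Fog, with log2 fold changes of −0.38 in the neuron comparison (edgeR adjusted p = 0.187) and 0.37 in the glia comparison (edgeR adjusted p = 0.192). Its interaction was −0.74 (SE 0.17, edgeR adjusted p = 0.0407), among the 2.39% of all genes tested that were called lower. With each library left out in turn it was called in 2 of 12 fits, with edgeR adjusted p from 0.0269 to 0.114. DESeq2 called *cta* in the interaction as well, and *Galphaq* too (adjusted p = 0.0304). Of 6 other class B receptors and relatives, *Dh31-R*, *Dh44-R1*, *Dh44-R2*, *Pdfr*, *hec* and *Cirl*, 0 were called in any of the 4 comparisons by edgeR or DESeq2, and 1 had an unadjusted p under 0.05, *Pdfr* between the controls (log2 fold change 0.32, edgeR adjusted p = 0.0375), a change under 1.5-fold.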

How the data were processed

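RNA was taken from whole heads and prepared with a stranded mRNA kit. Per the methods, the authors used seqtk for trimming, Bowtie2 for alignment to the BDGP Release 6 genome (dm6) and SAMtools for sorting. The deposited values are raw counts per FlyBase gene; the counting program and its use of strand are not given in the sources used here. Tables of the authors' own DESeq2 comparisons were deposited too and were not used.

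Groups follow the labels, which call the libraries biological replicates; p-values measure the spread between these libraries. No 2 libraries of a group agreed within counting noise. Counts were fitted in edgeR 4.0.16 (R 4.3.3; quasi-likelihood F test, two-sided, TMM, default filter on low counts) with 6 libraries per driver, and with all 12 for the interaction and the control comparison. P-values were adjusted by Benjamini-Hochberg over the 9983, 9951 and 10257 genes tested with elav-GAL4, repo-GAL4 and all libraries. A standard error is the fold change divided by the square root of F. Likeness used log2 CPM with a prior count of 2. Positions and exon lengths come from an Ensembl annotation of the same build, and 17599 gene IDs matched a symbol. The scripts were tested on simulated data.

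The members and lists were chosen with earlier results of these data known. Named genes are the members, the rest of the family, the lists of ligands and class B receptors, up to 4 G protein genes with the largest change, all genes with the pattern of *mthl8* or its mirror, the 5 genes most like *mthl8*, its 5 neighbours and *PIG-A*. *Gk1*, *Tudor-SN*, *CG32344*, *alrm*, *moody*, *repo*, *srp*, *eater*, *Hml*, *NimC1*, *Pxn*, *FASN1*, *Yp1* and *apolpp* were picked after their values were seen. Alternatives were DESeq2 1.42.0, RLE scaling, no filter, a replicate block, 1 fit of all 12 libraries and leaving out each library. Replicate numbers did not pair the libraries.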

Additional observations from a re-analysis of the deposited data

How the results depend on the processing

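*mthl8* had 0 counts in all 6 knockdown libraries, which no setting of the fits can change. Scaling by RLE changed no call among the 10 receptors, and DESeq2 changed 1 of theirs, that of *mthl2* between the controls. *mthl11*, of the rest of the family, was under the filter and was called in the glia comparison by DESeq2 and without the filter. The count of genes called over the whole table depended more on the setting. In the neuron comparison it was 278 with DESeq2, 49 without the filter, 30 in 1 fit of all 12 libraries and 1 to 199 with a library left out, beside 16. In the glia comparison it was 698 with DESeq2, 538 in 1 fit of all 12 libraries and 3 to 676 with a library left out, beside 358. In the interaction it was 686 with DESeq2 and 130 to 485 with a library left out, beside 309. Between the controls it was 202 to 608 with a library left out and 791 without neuron KD replicate 3 and repo control replicate 3, a setting chosen after seeing the data, beside 490.

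The receptors called in the glia comparison, 2 of 9, were 1 in the fit of all 12 libraries, where *mthl4* missed the threshold (edgeR adjusted p = 0.0678), and 0 to 3 with a library left out. They were 0 to 0 in the neuron comparison, 0 to 1 in the interaction, where *mthl3* was called without neuron KD replicate 1 (edgeR adjusted p = 0.0477), and 0 to 1 between the controls. Between the controls DESeq2 called 1 receptor, *mthl2*, and so did the fit without the 2 libraries that stood apart. Of the 5 genes most like *mthl8*, 2 were shared with the ranking by Spearman's correlation.

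Replicate numbers did not pair the libraries: deviations of same-numbered libraries correlated between −0.05 and −0.002 with elav-GAL4 and between −0.15 and 0.15 with repo-GAL4. With the replicate block, 2 genes were called in the neuron comparison and 212 in the glia comparison, 0 receptors among them, with log2 fold changes of 0.92 for *mthl3* (adjusted p = 0.0542) and 1.07 for *mthl4* (adjusted p = 0.0929) in the glia comparison.

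Fold changes that changed sign were small and uncalled, and the cause was not tested. Between the controls, *mthl4* was −0.0023 without the filter. Without the 2 libraries that stood apart, *mthl4* was −0.094, *mthl9* 0.016 and *mthl15* 0.12 between the controls, and *mthl1* −0.16 in the interaction. With a library left out, the ranges between the controls were −0.062 to 0.13 for *mth*, −0.068 to 0.13 for *mthl1*, −0.15 to 0.21 for *mthl4*, −0.51 to 0.015 for *mthl9* and −0.31 to 0.12 for *mthl15*. In the neuron comparison they were −0.12 to 0.093 for *mth*, −0.039 to 0.38 for *mthl3*, −0.31 to 0.42 for *mthl4* and −0.048 to 0.027 for *mthl10*. In the glia comparison they were −0.20 to 0.058 for *mthl10* and −0.13 to 0.33 for *mthl15*, and in the interaction −0.088 to 0.11 for *mthl1* and −0.081 to 0.17 for *mthl10*.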
